A study of Rattus norvegicus with 7 samples.

Results

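The step from postnatal day 3 (P3) to postnatal day 5 (P5) was examined in small RNA sequencing of the retina of the Wistar WU rat, an albino outbred strain. All 5006 features of the deposited table with a locus of 50 or more bases were compared, of 5491 features with a locus over all 7 ages. They belonged to 3260 genes and were annotated as lincRNA (2882 features), processed transcript (645), miRNA (493), snoRNA (377), miscellaneous RNA (199), snRNA (173), rRNA (96), antisense RNA (66), mitochondrial tRNA (22), scaRNA (18), sense intronic RNA (17), ribozyme (15), mitochondrial rRNA (2) and sRNA (1). The animals were untreated and kept on a light and dark cycle with free access to food and water, and the day of birth was counted as P0. For each age, the RNA of 3 retinas was pooled into 1 library, so neither age has a replicate and no test between them was possible. Values of the P1 and P7 libraries, each also from 1 pool of 3 retinas, are set beside the pair.

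Levels are given in FPKM, in which the count of fragments is corrected for locus length and scaled between libraries. Differences between the ages are P5 minus P3 of log2(FPKM + 1), a scale that understates the difference of low features. Low FPKM values were whole multiples of what 1 alignment is worth, and from these steps 563406 alignments were estimated for P3 and 435012 for P5. These steps were larger at P3 although P3 had the larger estimate, so the deposited values were not scaled by these totals. Medians and sums over features depend on the scaling, and other scalings are given at the end. Of the 5006 features, 1528 averaged 20 or more estimated alignments over the pair and were compared one by one. A feature was counted as higher or lower at P5 where its level differed at least 2-fold. In square brackets after a log2 difference stands its 95% counting interval, from the exact binomial interval of the alignments of both libraries. It covers counting error only and leaves out the spread between animals and between library preparations.

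MicroRNAs (miRNAs) are cut from hairpin precursors and guide the silencing complex to messenger RNAs mainly through the seed, bases 2 to 8 of the mature RNA. Small nucleolar RNAs (snoRNAs) stay in the nucleus, where those of the C/D box type (SNORD) guide the methylation and those of the H/ACA box type (SNORA) the pseudouridylation of ribosomal RNA, and the related scaRNAs guide the modification of the spliceosomal snRNAs. In the first postnatal days the rodent retina still holds dividing progenitors, which give rise to rods, bipolar cells and Müller glia, while ganglion, amacrine and horizontal cells are already in place.

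The mature sequences below belong to miRNAs with large differences between P3 and P5 and to relatives of theirs. They are shown to let relatives with 1 seed be compared, and were taken from RefSeq (GRCr8), which held a mature sequence for 269 of the 493 miRNA features. The seed is in capitals.
miR-100-5p: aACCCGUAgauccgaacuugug
miR-99b-5p: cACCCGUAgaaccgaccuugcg
miR-15b-5p: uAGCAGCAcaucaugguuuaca
miR-16-5p: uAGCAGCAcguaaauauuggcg
miR-195-5p: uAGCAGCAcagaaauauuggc
miR-29b-3p: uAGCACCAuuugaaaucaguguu
miR-190a-5p: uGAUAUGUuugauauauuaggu
miR-190b-5p: uGAUAUGUuugauauuagguu
miR-148a-3p: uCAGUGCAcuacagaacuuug
miR-148b-3p: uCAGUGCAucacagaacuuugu
miR-152-3p: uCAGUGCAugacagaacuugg
miR-181c-5p: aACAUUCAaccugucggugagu
miR-181d-5p: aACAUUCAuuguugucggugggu
miR-183-5p: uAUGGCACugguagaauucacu
miR-218a-5p: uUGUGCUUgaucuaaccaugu
miR-218b: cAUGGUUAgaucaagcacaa
miR-133b-3p: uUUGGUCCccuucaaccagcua
miR-133c: cAGCUGGUugaaggggaccaa

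Between the 2 libraries the makeup of the small RNA differed most in the snoRNAs. At P3 they took 37.6% of the estimated alignments (95% Wilson interval 37.4 to 37.7) and at P5 8.82% (8.74 to 8.90). The miRNAs took 38.0% (37.8 to 38.1) at P3 and 63.7% (63.5 to 63.8) at P5. For both classes the intervals treat estimated alignments as if they had been counted, so the error of the estimate is not in them. If all alignments had the same step, the snoRNA share was 34.4% at P3 and 9.06% at P5, outside the intervals. Mitochondrial tRNAs went from 4.21% to 2.54% and snRNAs from 3.89% to 2.24%, whereas lincRNAs went from 10.9% to 14.1% and rRNAs from 1.84% to 2.84%. Measured as signal, that is FPKM divided by the value of 1 alignment at P1, the snoRNAs held 1.98% at P1, 34.4% at P3, 9.06% at P5 and 9.39% at P7. As a whole library, P3 thus stood apart from its neighbours on either side, while P5 and P7 lay close together. Among low features this held for only a part of the P3 library, as given below.

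**Figure D1:**
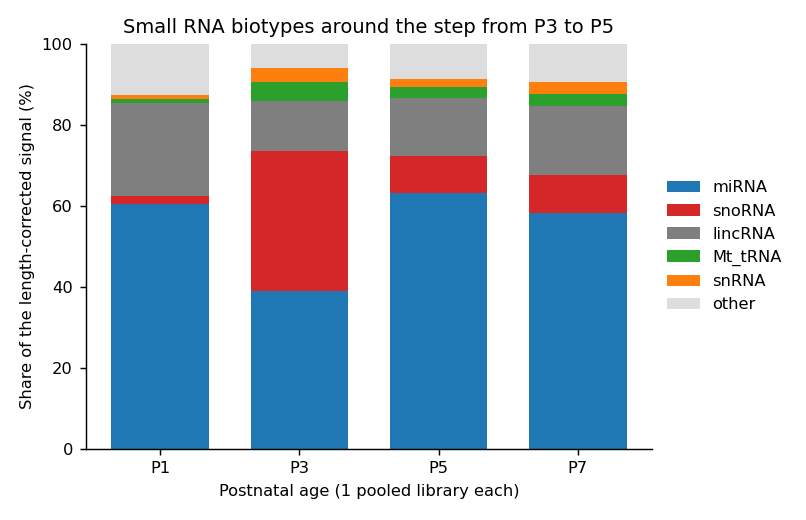
Share of the length-corrected signal (%) held by each biotype in the P1, P3, P5 and P7 libraries, 1 pooled library an age. The snoRNA part is 34.4% at P3 and 9.06% at P5, and the miRNA part is 39.1% at P3 and 63.2% at P5.

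As scaled in the deposited values, the larger share of the miRNAs at P5 was not a higher level of most miRNAs. The sums of the deposited levels differed between the libraries, and the summed snoRNA signal was 2.36 lower on the log2 scale at P5 (log2 difference of the sums -2.36), whereas the sum of all other features differed by 0.04. The summed miRNA signal was higher by 0.26. The 3 loci of Mir124, which give the same mature miRNA and are the hallmark miRNA of neurons, held 20.7% of the miRNA alignments at P3 and 34.2% at P5. Without them, the summed signal of the other 490 miRNA features differed by -0.01. In pooled tissue fewer cells of a type and less RNA per cell cannot be told apart.

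Over all 1528 features compared, the median log2 difference was 0.00, with 109 features (7.13%) higher and 296 (19.4%) lower at P5. Of the 285 miRNA features, 14 (4.91%) were higher and 16 (5.61%) were lower, with a median of 0.03 (quartiles -0.28 and 0.38). With both libraries scaled to their miRNA total, which takes 0.26 off each difference, 6 were higher and 25 lower. Of the 228 snoRNA features, 1 was higher and 182 were lower, with a median of -2.39 (quartiles -2.82 and -1.43). The counting interval lay wholly below 0 for 191 snoRNA features and wholly above 0 for 3. It lay above 0 for 74 miRNA features and below 0 for 58.

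**Figure D2:**
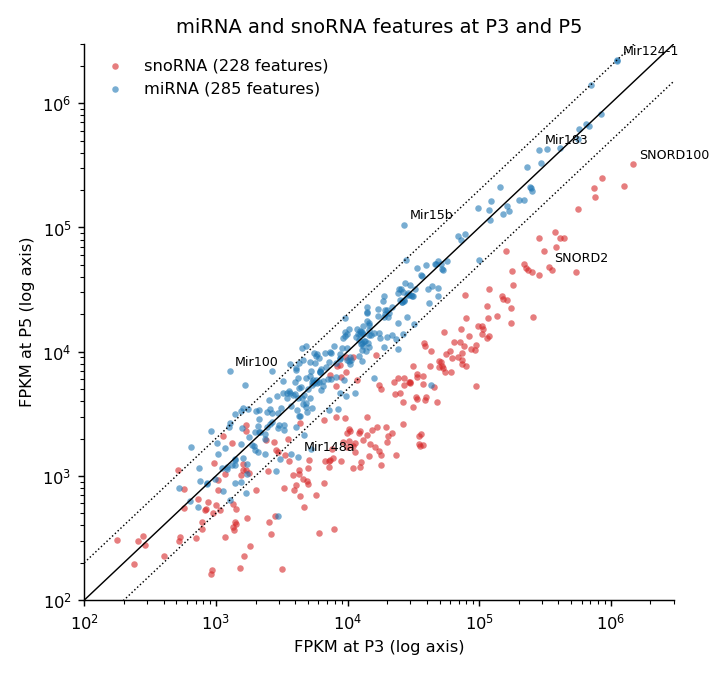
FPKM at P5 against FPKM at P3, both on log axes, for the 285 miRNA and 228 snoRNA features whose estimated alignments averaged 20 or more. The solid line marks equal levels and the dotted lines 2-fold differences. The miRNAs lie along the line of equal levels with a median log2 difference of 0.03, and most snoRNAs lie below it with a median of -2.39.

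The step from P3 to P5 had the fewest 2-fold miRNA differences of the 6 steps between neighbouring ages. With the same minimum of 20 alignments of the P1 scale in each step, 10.1% of the miRNA features differed 2-fold from P3 to P5, compared with 25% from P1 to P3, 18.3% from P5 to P7, 38.6% from P7 to P10, 16.9% from P10 to P15 and 29.5% from P15 to P21. For the snoRNAs it was 83.1% from P3 to P5 and 96.5% from P1 to P3, compared with 15.8% from P5 to P7. Neighbouring steps share a library, and the difference between steps was not tested.

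The 5 snoRNA features with the most estimated alignments were all C/D box RNAs. SNORD100 had 16865 FPKM at P1, 1480000 at P3, 322513 at P5 and 222210 at P7, and its log2 difference from P3 to P5 was -2.20 [-2.25 to -2.14]. SNORD48 had 13260 FPKM at P1, 1260000 at P3, 216229 at P5 and 128074 at P7, a log2 difference of -2.54 [-2.62 to -2.47]. SNORD74, which lies at chr13:78852741-78852821 (Rnor_6.0, plus strand), had 753615 FPKM at P3 and 174519 at P5, the larger of the SNORD42 features had 746134 and 207429, and SNORD2 had 337410 and 47850. Each of these 5 was highest at P3 of all 7 ages.

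Of the 8 snoRNA features with the largest differences, 4 were SNORD116, 2 were SNORD113, 1 was SNORD59 and 1 was SNORD11. SNORD113, SNORD115 and SNORD116 are known from imprinted clusters, which are expressed from 1 parental chromosome. A SNORD116 copy had 198 FPKM at P1, 37295 at P3, 1771 at P5 and 4499 at P7, a log2 difference of -4.40 [-4.97 to -3.88]. A further 3 SNORD116 copies had differences of -4.35, -4.26 and -4.05, and as these copies are close to each other in sequence their reads could be shared. These 4 copies lie between bases 194917277 and 194971566 of chromosome 1 (Rnor_6.0). The first of the 21 SNORD116 features starts at base 117143597, and whether the 4 copies belong to the imprinted cluster was not examined. Of the 6 SNORD116 features compared 4 were lower at P5, as were 4 of 4 SNORD115 features and 19 of 33 SNORD113 features. The SNORD features of other names were lower in 120 of 126, with a median of -2.53. A SNORD59 feature had 7841 FPKM at P3 and 377 at P5, from 90 and 5 estimated alignments (-4.38 [-6.04 to -3.10]). Of the 90 at P3, 87 lay in the deeper of the 2 parts of the library described below. SNORD11, which guides ribosomal RNA methylation, had 95332 and 5335 FPKM (-4.16 [-4.54 to -3.80]). SNORD113 and the miRNAs of the Dlk1-Dio3 cluster stood apart although 39 of the 41 SNORD113 features and all 32 of these miRNAs lie within the same stretch of chromosome 6. The median difference was -1.31 over the 33 SNORD113 features compared and 0.00 over the 28 miRNAs of the cluster. Among low SNORD113 features the lower level at P5 was seen in only a part of the library, as given below.

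The difference was smaller among the H/ACA snoRNAs. Of 169 SNORD features 147 were lower at P5 and none was higher, with a median of -2.47, compared with 19 of 40 SNORA features and a median of -0.91. SNORD loci of 100 or more bases had a median of -2.70 and those under 100 bases one of -2.46. The 39 SNORA loci of 100 or more bases had a median of -0.89. The medians of SNORD and SNORA loci of 100 or more bases thus lay further apart than those of short and long SNORD loci. A locus can be longer than its gene, as at SNORD2. Whether the difference between SNORD and SNORA goes with RNA length was therefore not tested. SNORA24 was the feature higher at P5, with 517 FPKM at P3 and 1113 at P5 (1.10 [0.26 to 1.99]). SNORA57 had 1133 and 2090 FPKM (0.88 [0.20 to 1.60]). U3, a C/D box RNA that takes part in the processing of the ribosomal RNA precursor, was by its name counted among neither the SNORD nor the SNORA features. Its 3 features compared had a median of 0.24 and a range of -0.05 to 0.78. The highest of them had 176 and 303 FPKM (0.78 [-0.20 to 1.81]), an interval that includes 0.

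All 182 snoRNA features lower at P5 were higher at P3 than at P1, and for 176 of them P3 was the highest of the 7 ages. Of all 296 features lower at P5, snoRNAs included, 275 were above P1 at P3 and 252 were highest at P3. The numbers were 37 and 34 of 37 snRNAs, 6 and 5 of 6 mitochondrial tRNAs, and 9 and 7 of 16 miRNAs. Features picked as lower at P5 are favoured to be high at P3, so these counts only describe them. Over the 228 snoRNA features the median log2 difference was 4.69 from P1 to P3 and 0.09 from P5 to P7. At P5 the level was still above that of P1 for 212 of the 228, by a median of 2.25.

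The low values allowed a look inside each library. At both P3 and P5 every low value compared (4267 and 4355 values under 75 alignments of the P1 scale) was the sum of whole multiples of 2 steps, of which the larger was 1.98 times the smaller. The tolerance was 0.001% of the value. Each of these libraries could thus be written as 2 components, a deeper one with the smaller step and a shallower one with the larger step. The P1 values were whole multiples of a single step, so comparisons of P3 with P1 set unlike libraries side by side. The study states that the pools were sequenced 2 times, but the components were not assigned to runs here, and no order was read into them. Abundant features could not be split, so the values that follow are those of the 4364 features split at both ages. These held 2.32% of the estimated snoRNA alignments at P3 and 6.10% at P5, and 2.60% and 2.39% of those of the miRNAs, so the component of most snoRNA and miRNA alignments is unknown.

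Among the low features, the higher snoRNA share of P3 lay in the deeper component. There, the 219 snoRNA features split at both ages took 12.3% of the alignments (95% Wilson interval 12.0 to 12.7), whereas in the shallower component of the same library they took 2.32% (2.09 to 2.57). At P5 both components held 3.8% to the first decimal, 3.82% (3.640 to 3.999) in the deeper and 3.81% (3.54 to 4.11) in the shallower. In the P1 and P7 libraries, which were not split, the same features held 1.91% and 4.11%. The shallower component of P3 thus lay between P1 and P7, and the deeper one above both. From P3 to P5 the direction turned with the component. In the deeper component the summed snoRNA level was lower at P5, by a log2 difference of -1.61 [-1.69 to -1.53], and in the shallower component it was higher at P5, by 0.78 [0.59 to 0.97]. Of 70 snoRNA features with a mean of 20 alignments that were split at both ages, 35 were lower at P5 in the values as deposited, 54 in the deeper component and 8 in the shallower one, and in the shallower one 37 were higher. The 219 snoRNA features together held 348 alignments in the shallower component at P3, so the counts there rest on few reads a feature. Features of the miRNAs were also counted as higher in that component, with numbers given at the end.

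The same turn was seen in C/D box snoRNAs, with -2.26 [-2.40 to -2.12] in the deeper and 0.65 [0.35 to 0.96] in the shallower component, and in H/ACA snoRNAs, with -1.28 [-1.39 to -1.17] and 0.81 [0.56 to 1.07]. In the same order, SNORD113 had -2.08 [-2.38 to -1.78] and 0.41 [-0.23 to 1.07], and SNORD116 had -1.41 [-1.76 to -1.05] and 0.59 [-0.27 to 1.49]. SNORD115, with 5 features split, had -0.98 [-1.75 to -0.24] and -0.35 [-1.50 to 0.78]. Each of these families thus had an interval that includes 0 in the shallower component. The snRNAs had -0.92 [-1.02 to -0.81] and 0.84 [0.56 to 1.13]. The low miRNAs had 0.01 [-0.05 to 0.07] in the deeper and 0.34 [0.23 to 0.45] in the shallower component, and the lincRNAs 0.29 [0.27 to 0.32] and -0.05 [-0.09 to -0.01]. Within the P3 library the log2 difference of the shallower from the deeper component was -2.73 for the snoRNAs and -0.90 for the miRNAs. At P5 it was -0.34 and -0.57. The age and the makeup of the deeper component of P3 cannot be told apart for the abundant snoRNAs.

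**Figure D3:**
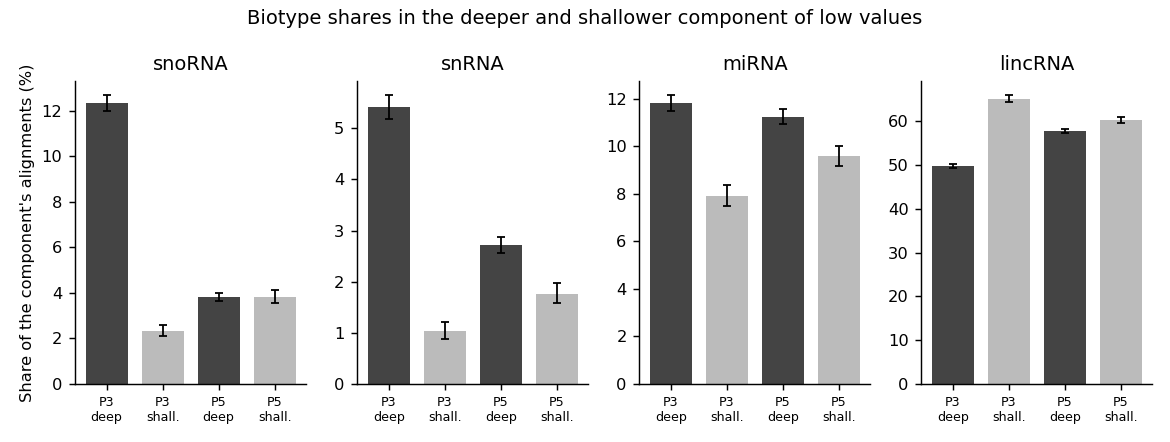
Share (%) of the alignments of the deeper (deep, dark bars) and the shallower (shall., light bars) component of the P3 and P5 libraries held by snoRNA, snRNA, miRNA and lincRNA features split at both ages, with 95% Wilson intervals for counting error. The snoRNAs hold 12.3% of the deeper and 2.32% of the shallower component at P3, and 3.82% and 3.81% at P5.

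Among the spliceosomal snRNAs, 37 of 82 features were lower and 2 were higher at P5, with a median of -0.82. U5, which aligns the exon ends during splicing, was lower in 9 of 9 features with a median of -3.43. The U5 feature with the largest difference had 981 FPKM at P1, 38551 at P3, 2532 at P5 and 2280 at P7 (-3.93 [-4.28 to -3.60]). U2, which binds the branch point, was lower in 17 of 26 features with a median of -1.49, and U7, which serves histone messenger RNA processing, in 3 of 3 with a median of -2.17. The 6 U4 features had a median of -0.88 and the 7 U6 features one of -1.30. U1, which recognizes the 5′ splice site, had a median of -0.11 over 27 features, 2 of them higher and 1 lower. The highest difference of a U1 feature was 1.22 [0.55 to 1.94]. These families too turned with the component. Over the features split at both ages, the summed level of U2 differed by -1.57 [-1.85 to -1.31] in the deeper and 0.92 [0.05 to 1.85] in the shallower component, and that of U6 by -1.53 [-1.77 to -1.30] and 1.389 [0.74 to 2.08]. U5, with 3 features split, differed by -1.28 [-1.82 to -0.77] in the deeper component and by 1.16 [-1.45 to 4.55] in the shallower, an interval that includes 0. U1 was higher at P5 in both, by 0.26 [0.05 to 0.47] and 0.65 [0.20 to 1.11]. Copies of 1 snRNA are near-identical, so the counts within a family are not independent.

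Of the 22 mitochondrial tRNAs 6 were lower at P5, none was higher, and the median was -0.60. AY172581.18 had 14671 FPKM at P1, 416924 at P3, 85642 at P5 and 106723 at P7 (-2.28 [-2.38 to -2.19]), while AY172581.14 had 22276 at P3 and 34522 at P5 (0.63 [0.38 to 0.88]). Of the mitochondrial rRNAs, AY172581.9 was higher at P5 with 606 and 1617 FPKM (1.41 [1.21 to 1.62]), and AY172581.24 had 1830 and 2063 FPKM (0.17 [0.07 to 0.28]). The cytoplasmic 5S rRNA features, 27 in number, had a median of -0.33 and the 24 features of 5.8S rRNA one of 0.32, with 4 of the latter higher at P5.

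The other small cytoplasmic and nuclear RNAs were mostly within 2-fold. The 14 features of 7SK, an inhibitor of transcription elongation, had a median of 0.23 with 3 higher at P5. The 5 features of 7SL, the RNA of the signal recognition particle, had a median of -0.11 and the 4 of RNase P, which trims tRNA precursors, one of 0.57. The 2 of RNase MRP had a median of 0.44. Of the 9 Y RNA features 3 were lower, and the most abundant had 86293 FPKM at P3 and 33301 at P5 (-1.37 [-1.49 to -1.25]). Vault RNA had 9 and 8 estimated alignments and was not compared. SCARNA18 had 24956 FPKM at P3 and 4767 at P5 (-2.39 [-2.78 to -2.01]), whereas SCARNA2 had 681 and 976 FPKM (0.52 [0.18 to 0.86]).

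**Figure D4:**
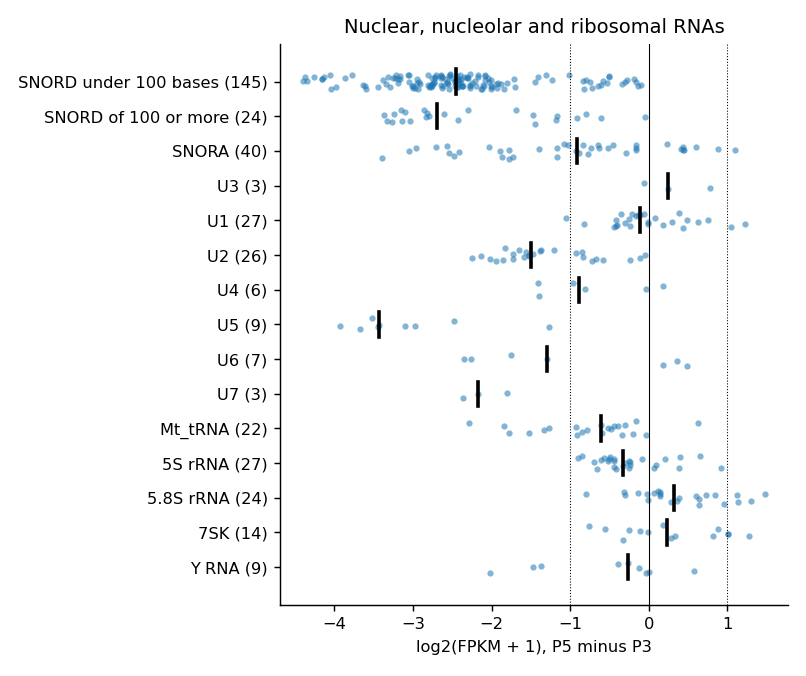
Differences of log2(FPKM + 1), P5 minus P3, of single features (points) with the median of each class (bar), the number of features in brackets and 2-fold limits as dotted lines. The SNORD, U2, U5 and U7 features lie mostly to the left of -1, with a median of -3.43 for U5, and the U1 and 7SK features lie around 0.

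The most abundant miRNA at both ages was that of the Mir124 loci. Mir124-1 had 391668 FPKM at P1, 1120000 at P3, 2210000 at P5 and 2090000 at P7, a log2 difference of 0.98 [0.95 to 1.01]. Mir124-3 had 1110000 and 2200000 FPKM (0.99 [0.96 to 1.02]), and Mir124-2 had 703618 and 1410000 (1.00 [0.97 to 1.03]). The 3 loci had 14762, 14630 and 14780 estimated alignments at P3 and 31445, 31303 and 31972 at P5, near-equal numbers that the same reads could give at each locus. Their FPKM differed because the loci differ in length. Of the 3 loci only Mir124-2 passed the 2-fold limit in the deposited values, and none did under the 4 other scalings. The other 7 of the 10 miRNA features with the most estimated alignments differed by less. Mir183, of the cluster that marks photoreceptors and other sensory cells, had 286739 FPKM at P3 and 422301 at P5 (0.56 [0.51 to 0.61]). Mir30d had 576722 and 624301, Mir19b1 679520 and 655149, Mir19b2 847581 and 825417, Mir204 163319 and 148323, Mir30b 198882 and 166673, and Mir20a 566303 and 515906 FPKM.

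The largest difference upward among the miRNAs was that of Mir100 (chr8:45746948-45747027, Rnor_6.0, plus strand). Mir100 had 371 FPKM at P1, 1272 at P3, 6990 at P5 and 6348 at P7, with 12 estimated alignments at P3 and 71 at P5 (2.46 [1.56 to 3.48]). Its relatives were higher at P5 by less. Mir99a had 5042 FPKM at P1, 27558 at P3, 54344 at P5 and 79862 at P7 (0.98 [0.76 to 1.19]), and Mir99b, which shares the seed printed for miR-100-5p, had 39217 at P3 and 50213 at P5 (0.36 [0.15 to 0.56]). The seed of miR-99a-5p was not compared. Mirlet7c-1, a gene 634 bases from Mir99a, had 19059 and 19103 FPKM (0.00 [-0.21 to 0.22]).

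Mir15b (chr2:165605923-165606020, Rnor_6.0, plus strand) had 134684 FPKM at P1, 26781 at P3, 104909 at P5 and 57863 at P7, with 563 and 2379 estimated alignments at P3 and P5 (1.97 [1.84 to 2.10]). P3 was its low point in the first week. Mir16, of the same seed and 51 bases further on the same strand, had 274982, 244658, 211170 and 208863 FPKM at the same ages, and its log2 difference from P3 to P5 was -0.21 [-0.28 to -0.14]. The ratio of Mir16 to Mir15b was 2.04 at P1, 9.14 at P3, 2.01 at P5 and 3.61 at P7. Both restrain the cell cycle in many cell types. The other members with this seed did not share the difference, since Mir195 had 3311 and 2546 FPKM (-0.38 [-1.17 to 0.41]) and Mir322 had 5877 and 5597 FPKM (-0.07 [-0.61 to 0.47]). Mir503 of the same list had 8720 and 8760 FPKM (0.01), and Mir497 had 2 and 3 alignments and was not compared.

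Mir29b1 had 2672 FPKM at P3 and 7044 at P5 (1.40 [0.73 to 2.10]). Mir29b2, which gives the same miR-29b-3p, had 5239 and 7016 FPKM (0.42 [-0.18 to 1.03]), so the levels of both loci lay close to each other at P5. Mir29b1 had 27 alignments in the deeper and 1 in the shallower component at P3, and 38 and 24 at P5. Of the other miRNA features with the 10 largest differences upward, 7 carry only a clone name. Their highest levels were those of AABR07015067.1, with 4839 FPKM at P3 and 11073 at P5 (1.19 [0.52 to 1.91]), and AABR07063462.1, with 4492 and 10780 (1.26 [0.59 to 1.98]). AABR07057353.2 had 1669 and 5366 (1.68 [0.77 to 2.70]), AC134024.2 had 649 and 1718, AABR07049535.1 had 912 and 2295, AABR07019093.1 had 1395 and 3125, and AABR07035541.1 had 1612 and 3500 FPKM.

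Of the 10 miRNA features with the largest differences downward, 2 lay over snoRNA genes. AC127784.1 had 861 FPKM at P1, 42680 at P3, 5344 at P5 and 6043 at P7 (-3.00 [-3.30 to -2.72]), and the gene of SNORD43 lies inside its own (chr7:121302203-121302327, Rnor_6.0). AC112440.2, whose gene holds that of SNORD20, had 1708 FPKM at P3 and 724 at P5 (-1.24 [-1.76 to -0.74]). AABR07072264.1 had 2980 and 472 FPKM (-2.66 [-4.05 to -1.50]), and its 45 alignments at P3 all lay in the deeper component.

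Among named miRNAs, Mir190, which lies in an intron of a talin gene in mammals, had 5375 FPKM at P1, 5291 at P3, 1658 at P5 and 1308 at P7 (-1.67 [-2.82 to -0.63]). Its relative Mir190b with the same seed had 4139 and 3395 FPKM at P3 and P5, a log2 difference of -0.29. Mir148a had 4937 FPKM at P1, 4192 at P3, 1428 at P5 and 1858 at P7 (-1.55 [-2.27 to -0.88]). Mir152, with the same seed, had 4661 FPKM at P3 and 2151 at P5, a log2 difference of -1.12, and Mir148b had 4331 and 3061, one of -0.50, so all 3 had a lower level at P5, by unequal amounts. Mir410 of the Dlk1-Dio3 cluster had 2853 and 1097 FPKM (-1.38 [-2.43 to -0.39]). AABR07071431.1, which has only a clone name, had 15927 and 6188 FPKM (-1.36 [-1.74 to -1.01]).

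Mir184, known from the lens and cornea, had 28786 FPKM at P1, 11377 at P3, 4653 at P5 and 456 at P7 (-1.29 [-1.83 to -0.76]), a level that was lower at each later age of the first week and was 4972 FPKM at P10. In the mir-135 and mir-218 list all 4 features had a lower level at P5, with a median of -0.77, and 1 passed the 2-fold limit. Mir218-2 had 8733 and 4632 FPKM (-0.91 [-1.27 to -0.57]), Mir135a had 12887 and 8365 (-0.62 [-0.92 to -0.32]) and Mir135b had 4884 and 3271 (-0.58 [-1.19 to 0.02]). Mir3565, the gene of miR-218b, had 2918 FPKM at P1, 3727 at P3, 1501 at P5 and 669 at P7 (-1.31 [-1.70 to -0.96]). Over 20 bases the sequence printed for miR-218b is the reverse complement of miR-218a-5p, and in the RefSeq gene list (GRCr8) Mir3565 overlaps Mir218-1. The use of strand in the counting is not given in the sources used here, so reads of this pair of RNAs could not be told apart.

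The let-7 family, which accumulates as progenitors stop dividing, had 10 features compared, none past 2-fold, with a median of 0.10 and a range of -0.08 to 0.54. The sign of this median was not stable, since it was -0.17 with the miRNA total as the scale and -0.01 with TMM scaling. Mirlet7g had 232516 FPKM at P3 and 305698 at P5 (0.39 [0.33 to 0.46]), and Mirlet7i had 120857 and 114289 (-0.08 [-0.18 to 0.02]). The 5 features of the mir-99, mir-100 and mir-125 families had a median of 0.36 with 1 past 2-fold, and among them Mir125b1 had 29638 and 34521 FPKM (0.22 [0.02 to 0.41]) and Mir125a had 51748 and 46426 (-0.16 [-0.31 to 0.00]). None of the 12 features of the proliferative mir-17-92 cluster and its paralogs passed 2-fold, with a median of -0.07 and a range of -0.40 to 0.09. Mir17 had 41196 FPKM at P3 and 31909 at P5 (-0.37 [-0.56 to -0.17]), and Mir106b had 410884 and 436625 (0.09 [0.03 to 0.15]). The summed level of this list was 4269520 FPKM at P1, 3353470 at P3, 3292200 at P5 and 1607510 at P7, so P3 and P5 lay closer to each other than to their neighbours.

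Of the 17 neuronal features compared 1 was higher and 1 lower at P5, with a median of 0.15, or -0.12 with the miRNA total as the scale. Beside Mir124, Mir129-2 had 4264 and 8147 FPKM (0.93 [0.51 to 1.36]), and Mir138-1, a regulator of dendritic spines, had 18581 and 25419 (0.45 [0.17 to 0.74]). Mir128-1 had 20015 and 13076 FPKM (-0.61 [-0.98 to -0.25]). Within the mir-181 family, Mir181a2 had 295836 and 333186 (0.17 [0.11 to 0.23]) and Mir181c 48346 and 53494 (0.15 [0.01 to 0.28]), but Mir181d, with the same seed, had 7240 and 3370 (-1.10 [-1.61 to -0.61]). In the sensory list Mir96, the gene 97 bases from Mir183 on chromosome 4, had 53459 FPKM at P3 and 45703 at P5 (-0.23 [-0.35 to -0.10]), the opposite sign to Mir183.

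The 7 features of the glia and late progenitor list had a median of 0.39 with 1 past 2-fold. Mir23a had 27184 and 35521 FPKM (0.39 [0.09 to 0.67]) and Mir24-2 had 10261 and 15312 (0.58 [0.28 to 0.87]), while Mir27b had 23401 and 12620 (-0.89 [-1.20 to -0.58]). The 6 features of the mir-30 family had a median of -0.31 and none passed 2-fold, with 5 intervals below 0 and 1 above. Of the 28 Dlk1-Dio3 miRNAs 1 was lower, 22 had an interval that included 0, and the highest difference was that of Mir487b with 14010 and 20722 FPKM (0.56 [0.29 to 0.84]).

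**Figure D5:**
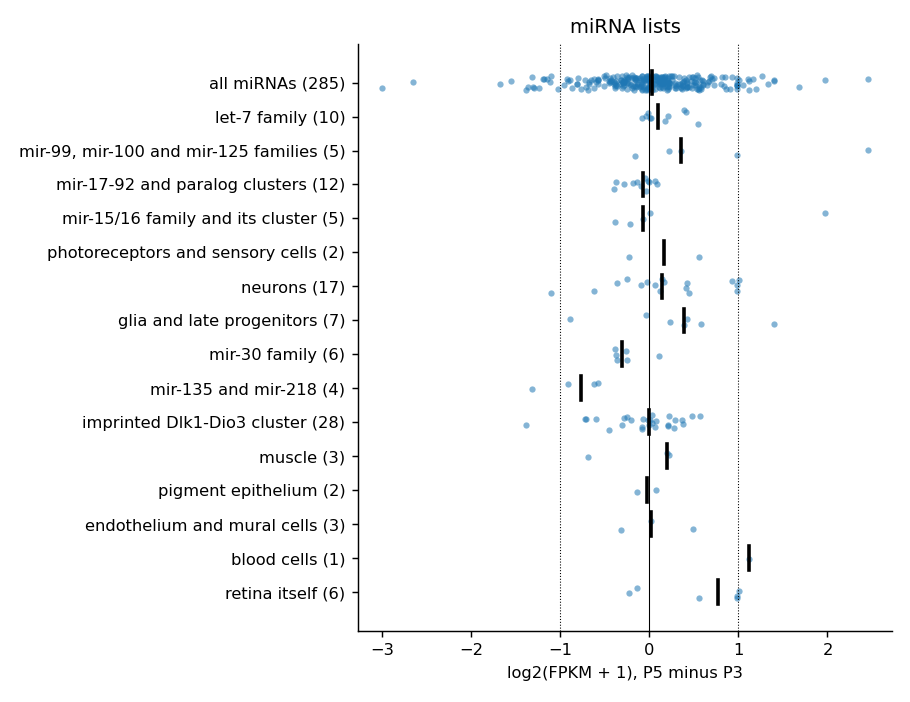
Differences of log2(FPKM + 1), P5 minus P3, of the miRNA features (points) by list, with the median (bar), the number of features compared in brackets and 2-fold limits as dotted lines. The median is 0.03 for all miRNAs, -0.77 for mir-135 and mir-218, -0.31 for the mir-30 family and 0.36 for the mir-99, mir-100 and mir-125 families. The list of blood cells holds 1 feature, at 1.12.

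Markers of retinal cells were present at both ages, with Mir124, Mir183, Mir96 and Mir204 at the levels given above. Markers of other tissues were also present. Muscle miRNAs, of which 3 of the list were features of 50 or more bases, summed to 8385 FPKM at P1, 38930 at P3, 33201 at P5 and 5764 at P7. Mir133b had 1296, 21836, 13522 and 612 FPKM at these ages, with a log2 difference from P3 to P5 of -0.69 [-1.09 to -0.31], and Mir1b had 2715, 12650, 14500 and 715 FPKM (0.20 [-0.22 to 0.62]). Mir499, a further muscle marker, had 4375, 4444, 5179 and 4437 FPKM and was thus of like level at all 4 ages. By a rule chosen after the values were seen, 5 of the 285 miRNA features had levels at P3 and at P5 that each exceeded those of P1 and P7 at least 4-fold. Besides Mir133b and Mir1b these were AABR07054963.1, which lies 9752 bases from Mir1b on chromosome 3 and had 766, 24116, 10573 and 605 FPKM (-1.19 [-1.56 to -0.82]), Mir3582, the gene of miR-133c, with 173, 8461, 3439 and 185 FPKM (-1.30 [-1.67 to -0.93]), and Mir205, known from epithelia, with 503, 6154, 6843 and 426 FPKM (0.15 [-0.47 to 0.78]). The sequence printed for miR-133c is the reverse complement of that of miR-133b-3p over 20 bases. The P3 and P5 libraries thus shared these RNAs, and 2 of the 16 miRNA features lower at P5 were among them.

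Among the blood markers Mir451a, the miRNA of red cells, had 13378 FPKM at P1, 3660 at P3, 7945 at P5 and 3910 at P7 (1.12 [0.46 to 1.82]). Mir144, from the same primary transcript, had 3 and 7 alignments at P3 and P5, Mir223 had 7 and 15 and Mir142 had 25 and 13, too few to be compared. Of the vessel markers, Mir145 had 33738 and 47315 FPKM (0.49 [0.28 to 0.69]), Mir143 had 10555 and 8498 (-0.31 [-0.53 to -0.09]) and Mir126a had 14666 and 14922 (0.02 [-0.13 to 0.18]). Of the pigment epithelium pair, Mir211 had 5397 and 5703 FPKM (0.08 [-0.25 to 0.41]), beside the values of Mir204 given above. The part of these tissues in the differences of other RNAs was not tested.

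Small RNA libraries also hold fragments of longer transcripts. Of 626 lincRNA features 60 were higher and 43 lower, with a median of 0.24, and of 169 processed transcript features 22 were higher and 5 lower, with a median of 0.34. The lincRNA median was smaller than the shift of 0.26 that scaling to the miRNA total gives. A transcript of LOC102549726, a lincRNA whose gene on chromosome 20 holds that of SNORD52, took 11335 of the estimated alignments at P3 and 1777 at P5, with 638 FPKM at P1, 42728 at P3, 5774 at P5 and 4610 at P7 (-2.89 [-2.96 to -2.82]). The other 2 transcripts of LOC102549726 had 379 and 746 FPKM (0.97) and 132 and 175 FPKM (0.41). AABR07046725.1 had 106, 5168, 767 and 650 FPKM at these ages (-2.75 [-2.92 to -2.58]), a like course, although the table lists no snoRNA gene inside it. AABR07071813.1 had 3335 and 4865 FPKM (0.54 [0.46 to 0.63]), and the largest upward difference was that of AABR07057421.3, with 28 FPKM at P3 and 228 at P5 from 6 and 43 alignments (2.98 [1.79 to 4.55]). Among the processed transcripts, Syne2, a nuclear envelope protein that moves the nuclei of photoreceptors, had 552 FPKM at P3 and 242 at P5 (-1.19 [-1.83 to -0.59]).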

How the data were processed

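Retinas were pooled by age (3 per library), RNA was isolated with a miRNA kit and libraries were made with the Ion Total RNA-Seq Kit v2 and read on an Ion Torrent PGM. The authors trimmed the reads, mapped them to Ensembl noncoding RNAs (Rnor_6.0, by the submitters' processing notes) and ran Cufflinks, Cuffmerge and Cuffdiff (2.2.1.3). The deposited values are FPKM as the authors' Cuffdiff gave them. The highest values are rounded to 3 digits in the table, which has 1048575 rows. The fold changes, test statistics, p-values and q-values of the authors' comparisons were not used, and some results are not reported here.

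Alignments were estimated from the steps of low FPKM values. The value of 1 alignment at P1 was found for 600 of 682 locus lengths, and all low values at P3 (0.792546 and 1.56675 P1 alignments a step) and P5 (0.707641 and 1.40253) came out whole. Features above 75 P1 alignments were assigned the mean step of their biotype, so the totals could lie between 333109 and 658508 at P3 and between 276211 and 547443 at P5. The method was tested on simulated data. Alternatives were other scalings, pseudocounts of 0.1 and 10 in place of 1, other filters, a fold limit of 1.5 and, chosen after seeing the data, each component alone.

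Features to be named were the 10 miRNAs with the largest difference in each direction and the 10 with the most alignments, the 8 lower, 3 higher and 5 most abundant snoRNAs, for each other biotype the 3 most abundant and the largest difference each way, and examples from the lists. The members, lists and tests were chosen with earlier results of these data known, and Mir190b, Mir148b, Mir152, Mir205 and AABR07054963.1 were named for a shared seed or a course seen in the values. Analyses used Python 3.11.15, numpy 2.4.6, pandas 2.3.3, scipy 1.17.1 and matplotlib 3.10.9.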

Additional observations from a re-analysis of the deposited data

How the results depend on the processing

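No paired analysis was possible because each age has 1 pooled library and nothing was tested. For the same reason no replicate could be left out. With both libraries scaled to their miRNA total, the median log2 difference was -0.23 for miRNAs and -2.65 for snoRNAs, and 6 miRNA, 0 snoRNA and 49 of all features were at least 2-fold higher at P5, with 25 miRNA features lower. The miRNA median was -0.043 with median-of-ratios and -0.078 with TMM scaling, and under TMM the snoRNA median was -2.50 with 0 snoRNA features higher. With no filter on low values the snoRNA median was -1.85, 61 miRNA, 19 snoRNA and 827 of all features were higher, and 51 miRNA and 883 of all features were lower. With a mean of 100 alignments the snoRNA median was -2.56, 2 miRNA, 0 snoRNA and 8 of all features were higher, and 5 miRNA and 168 of all features were lower. A limit of 1.5-fold gave 39 miRNA, 4 snoRNA and 294 of all features higher and 34 miRNA features lower. Among the features split into components, a choice made after seeing the data, 8 of 106 miRNA features and 35 of 70 snoRNA features were lower in the values as deposited, and 12 miRNA features were higher. In the deeper component 54 snoRNA features were lower and 0 higher and 16 miRNA features were higher, and in the shallower component 8 snoRNA features were lower while 37 snoRNA and 38 miRNA features were higher. The miRNA share at P3 was 39.1% if all alignments had the same step, 38.8% as summed FPKM and 25.8% with the loci under 50 bases included, and at P5 63.2%, 72.7% and 43.0%. The snoRNA share was 34.4%, 48.6% and 29.5% at P3 and 9.06%, 14.6% and 8.97% at P5. Pseudocounts of 0.1 and 10 FPKM moved neither median. The medians of the Dlk1-Dio3 and vessel lists, near 0 as reported, were below 0 under all 4 scalings, and those of the photoreceptor and muscle lists were -0.10 and -0.07 with the miRNA total as the scale. The cause of these shifts was not tested. Differences of features with few alignments are limited by depth, and the spread between animals is unknown.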

Other observations

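The 485 features of under 50 bases were left out because FPKM grows steeply at such lengths. Of these, 437 had a value above 0 at P3 or P5, and 138 were at least 2-fold higher and 107 at least 2-fold lower at P5, with a median log2 difference of 0.00. Among the 34 snoRNA features above 0 the median was -0.04, with 8 higher and 8 lower, and among the 72 miRNA features above 0 it was 0.24. Mir206 of the muscle list lies on such a short locus. Their alignments were not estimated.

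Of the antisense RNAs, 14 of 66 features could be compared, with a median of 0.43. Rn60_1_2216.1 had 537 FPKM at P3 and 1245 at P5 (1.21, 95% counting interval 0.83 to 1.62), and Rn60_19_0375.4 had 912 and 259 FPKM (-1.82, from -2.88 to -0.87), with all of its 44 alignments at P3 in the deeper component. The sense intronic RNAs had a median of -0.10 over 9 features, 1 of them lower at P5. The sRNA MIMT1_1 had 13 and 14 estimated alignments.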
